A study of Mus musculus with 23 samples.

Results

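The late part of the response to lipopolysaccharide (LPS) was examined in wild-type (WT) mouse macrophages differentiated in culture from bone marrow (BMDMs). The libraries were chosen by their group label: 3 of WT cells with LPS at the time label T32 and 2 of WT cells with LPS at T16, out of 23 in the series. Among the others were 3 each of WT cells at T6 with LPS and at T0 untreated. The rest were 3 at each of the same 4 labels from cells labelled as knockout (KO) of the pseudokinase gene Stk40. Stk40 RNA was still counted in KO cells, at means of 161 TMM-scaled CPM at T16 and 105 at T32, against 120 and 82.8 in WT cells. The sources used here do not give the unit of the time labels, the LPS dose, the strain, age or allele, or whether libraries of a group are separate mice or cultures. The p-values therefore reflect the spread among the deposited libraries alone, part of which may be technical.

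LPS is a bacterial cell wall component that Toll-like receptor 4 (TLR4) senses together with CD14. Its signal acts through NF-kB, AP-1 and interferon regulatory factors to raise cytokines, chemokines and enzymes within hours, and induced inhibitors, RNA decay and altered chromatin later bring many of them down while other genes stay raised. Resolution in macrophages is known for a return of genes for scavenging, lipid handling and iron uptake.

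The 5 libraries held 28570725 to 39113183 counts. The 28 macrophage identity genes were all detected. Adgre1, which encodes the macrophage marker F4/80, was at 4195 to 4206 TMM-scaled CPM in the T32 libraries and at 4713 and 3289 CPM in the T16 libraries. WT T16 replicate 2 stood apart. It was the T16 library with Y-linked transcripts (42.8 CPM) and almost no Xist RNA (0.140 CPM, against 574 CPM in T16 replicate 1). WT T32 replicate 3 had the same pattern (0.173 CPM of Xist, against 580.5 and 719.9 CPM in T32 replicates 1 and 2), so each group held libraries of both patterns. In T16 replicate 2, Saa3 took 4.46% of its counts against 2.45% in T16 replicate 1. The library's mean correlation with the other T16 and T32 libraries, both WT and KO, was 0.969. For the other 4 WT libraries compared it was 0.982 to 0.987. WT T32 replicate 2 had 16.4 CPM of the collagen gene Col1a1, against 147 and 198 CPM in the other T32 libraries and 160 and 178 CPM in the T16 libraries. All 3 WT T32 libraries also stood apart from the other 20 in reads assigned to pseudogenes, as described with the genes that rose.

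Between T32 and T16, 213 of 15782 genes tested rose (1.35%) and 247 fell (1.57%), 460 in all (2.91%), at a Benjamini-Hochberg adjusted p under 0.05 in edgeR's quasi-likelihood test. The median log2 fold change, T32 over T16, was 0.01 over all genes tested, 1.25 over those that rose and −1.38 over those that fell. The fit took its spread from all 23 libraries. Fitted on the 5 libraries alone, it called no gene (1714 had an unadjusted p under 0.05), and without WT T16 replicate 2 it called 43 higher (0.258%) and 48 lower (0.287%), of which 84 were also called with all libraries. It called 89 and 111 without WT T32 replicate 1, 80 and 95 without WT T32 replicate 2, and 1921 and 1091 without WT T16 replicate 1. Scaled by library totals, which moves the median of all genes to 0.14, it called 252 higher and 160 lower. All 460 genes kept their direction without WT T16 replicate 2, at medians of 1.21 for those that rose and −1.05 for those that fell. That direction was nearly fixed in advance, because all 213 genes that rose and 245 of the 247 that fell had no overlap between groups. Of all 15782 genes tested, 4936 had none. Of 75 named or listed genes called with all libraries, 40 were still called without WT T32 replicate 1, 39 without WT T32 replicate 2, 56 without WT T32 replicate 3, 66 without WT T16 replicate 1 and 23 without WT T16 replicate 2.

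**Figure D1:**
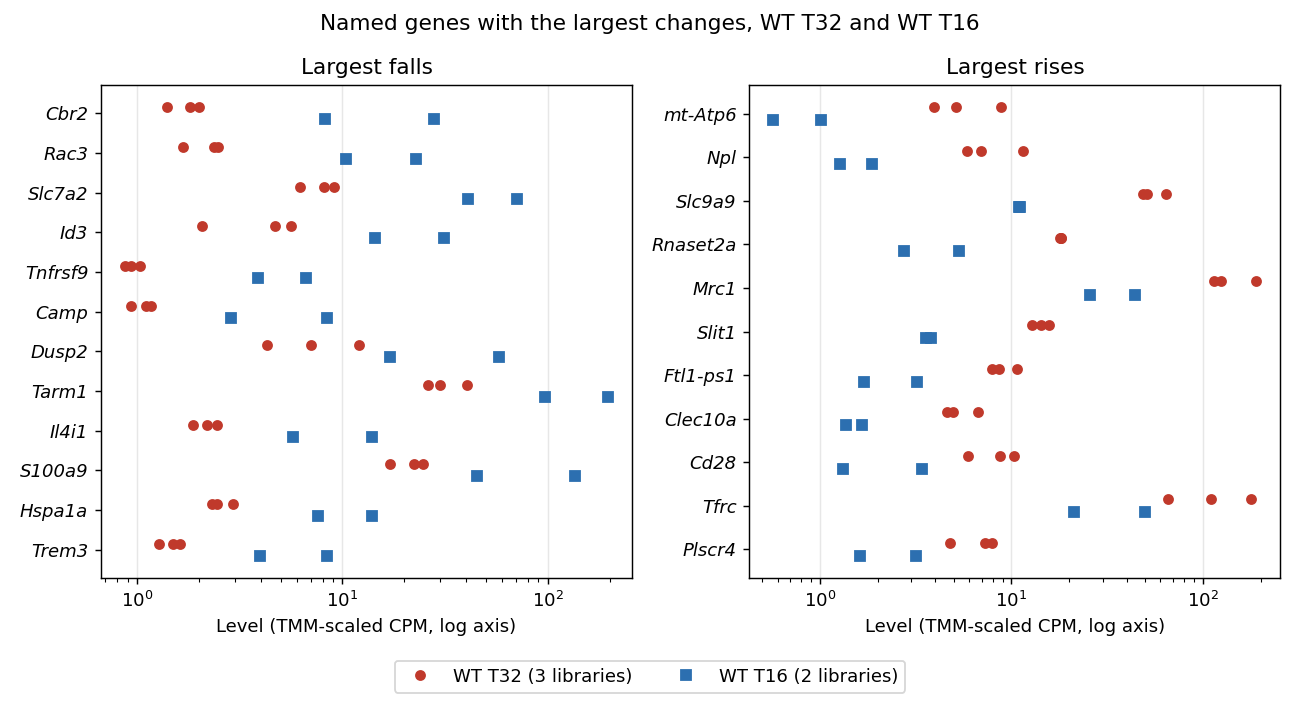
Level (TMM-scaled CPM, log axis) of the named genes with the largest changes and an edgeR adjusted p under 0.03, 12 lower and 11 higher; each circle is 1 of 3 WT T32 libraries and each square 1 of 2 WT T16 libraries. Genes were drawn only if the circles and squares do not overlap, which held for 4936 of 15782 genes tested.

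The genes that fell were largely genes that LPS had raised earlier. Of the 247, 159 (64.4%) were called higher at T6 than at T0, against 27.3% of all genes tested, and 31 (12.6%) were called lower, against 31.9%. The T6 and T0 libraries are not among those compared.

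The arginine transporter gene Slc7a2 (GRCm38 chr8:40862396-40922308), which supplies arginine to nitric oxide synthase and arginase, was at 8.17, 6.2 and 9.11 CPM in WT T32 libraries, against 70.5 and 41.0 CPM in WT T16 libraries. All T32 values were below both T16 values, as the rule for naming it required. Slc7a2 fell by 2.84 ± 0.27 on the log2 scale (SE; edgeR adjusted p = 2.79e-05), and it still fell without T16 replicate 2 (−3.18, edgeR adjusted p = 1.95e-05). It had averaged 350.0 CPM at T6 and 2.13 CPM at T0. Ptges, the inducible prostaglandin E synthase, was at 81.1, 69.5 and 99.6 CPM in WT T32 libraries, against 307 and 373 CPM in WT T16 libraries, and fell by 2.03 ± 0.21 (edgeR adjusted p = 2.79e-05). Arg1, the arginase that competes for arginine, was at 9.93, 3.78 and 7.07 CPM in WT T32 libraries, against 25.3 and 24.4 CPM in WT T16 libraries, and fell by 1.84 ± 0.37 (edgeR adjusted p = 0.00913). Il4i1, an amino acid oxidase of activated myeloid cells, fell by 2.16 ± 0.35. The list of nitric oxide, arginine, itaconate and tryptophan enzymes also holds genes of the prostaglandin and leukotriene pathways, among them Ptges. Its median was −0.29. Of its 24 genes tested, the 4 above fell and 1 rose, against 1.57% and 1.35% of all genes tested. The one that rose was Alox5ap, which presents arachidonic acid to the leukotriene pathway (262, 320.0 and 295 CPM in WT T32 libraries, 123 and 168 CPM in WT T16 libraries, 1.01 ± 0.19). Nos2, the inducible nitric oxide synthase, was at 60.0, 31.2 and 174 CPM in WT T32 libraries, against 102 and 165 CPM in WT T16 libraries. Those groups overlapped, and Nos2 had no call (−0.60 ± 0.77). Ptges and Alox5ap were still called without WT T16 replicate 2, and Arg1 (−1.87) and Il4i1 (−1.38) were not.

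Among 38 inflammatory cytokine and chemokine genes tested, 6 fell and none rose, against 1.57% and 1.35% of all genes tested. The list's median was −0.77, against 0.01. Il1b, the inflammasome-processed cytokine, was at 134, 170.2 and 159 CPM in WT T32 libraries, against 474 and 541 CPM in WT T16 libraries, and fell by 1.72 ± 0.33 (edgeR adjusted p = 0.00634). Its antagonist Il1rn, which is not on this list, was at 371, 297 and 581 CPM in WT T32 libraries, against 1485 and 1838 CPM in WT T16 libraries. Il1rn fell by 2.0 ± 0.30. Both genes' groups were well apart. Il6, the acute-phase inducer, was at 0.836, 0.962 and 1.13 CPM in WT T32 libraries, against 4.74 and 1.76 CPM in WT T16 libraries, and fell by 1.76 ± 0.40 (edgeR adjusted p = 0.0215). It had averaged 71.1 CPM at T6. Csf3, the granulocyte growth factor, fell by 2.62 ± 0.57, Ccl24 by 2.10 ± 0.47, Ccl22 by 1.81 ± 0.36 and Ccl9 by 0.83, the last 3 encoding chemokines for eosinophils, T cells and myeloid cells. Without WT T16 replicate 2 the list's median was −0.36 and 2 members fell, Il6 and Ccl22. Il1b (−1.62), Csf3 (−1.44) and Ccl24 (−1.62) then had no call. Tnf, the prototype LPS cytokine, had 118, 95.9 and 173 CPM in WT T32 libraries, against 162 and 228 CPM in WT T16 libraries, and no call (−0.60 ± 0.25). The chemokine genes Cxcl10 and Ccl5 and the itaconate enzyme gene Acod1 also had no call (−0.51 ± 0.49, −0.76 ± 0.36 and −0.38 ± 0.30). They and Tnf were named after their values were seen.

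Promoter windows were searched for motifs of 3 factor families that LPS engages, NF-kB (kappaB), C/EBP and AP-1. In RefSeq's windows of 250 bases before the start (GRCm38.p6), 13.0% of 185 genes that fell held a kappaB match, against 8.98% of 10572 genes tested; the C/EBP motif TTGCNNAA was in 12.4% against 7.53%, and the AP-1 motif TGANTCA in 8.65% against 4.52%. Of 94 protein-coding genes that rose, 4.26% held a kappaB match, 8.51% the C/EBP motif and 8.51% the AP-1 motif. Both strands were searched, no test was run, and a match is not a site. The 2 named genes that fell with at least 2 of these motifs are shown, to set the matches in their sequence; capitals mark the matches. Il6 lies at chr5:30012864-30013113 on the plus strand and Mmp12, a macrophage elastase, at chr9:7344147-7344396 on the plus strand.
Il6: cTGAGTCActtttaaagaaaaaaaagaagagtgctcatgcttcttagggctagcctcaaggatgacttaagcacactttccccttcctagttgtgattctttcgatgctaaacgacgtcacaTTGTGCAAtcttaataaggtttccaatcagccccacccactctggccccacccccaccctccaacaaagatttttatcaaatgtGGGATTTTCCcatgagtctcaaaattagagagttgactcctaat
Mmp12: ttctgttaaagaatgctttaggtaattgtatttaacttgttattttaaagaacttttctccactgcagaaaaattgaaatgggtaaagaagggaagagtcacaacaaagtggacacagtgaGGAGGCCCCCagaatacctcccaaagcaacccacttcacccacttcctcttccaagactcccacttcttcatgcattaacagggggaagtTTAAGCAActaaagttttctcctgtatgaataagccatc
Il6 holds 1 match of each motif, and Mmp12 holds 1 kappaB and 1 C/EBP match. Mmp12 was at 35.6, 22.7 and 17.5 CPM in WT T32 libraries, against 77.1 and 46.3 CPM in WT T16 libraries (−1.29 ± 0.35, edgeR adjusted p = 0.0498), and had −1.61 and no call without WT T16 replicate 2.

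Several receptors, feedback regulators and small signalling proteins fell. Tarm1, a receptor that activates neutrophils and macrophages, was at 29.9, 26.1 and 40.3 CPM in WT T32 libraries, against 97.2 and 196 CPM in WT T16 libraries (−2.19 ± 0.29). Tnfrsf9, the costimulatory receptor 4-1BB, was at 0.928, 0.872 and 1.04 CPM in WT T32 libraries, against 3.86 and 6.61 CPM in WT T16 libraries (−2.46 ± 0.27). Rac3, a small GTPase, was at 1.67, 2.37 and 2.46 CPM in WT T32 libraries, against 10.4 and 22.8 CPM in WT T16 libraries (−2.93 ± 0.32). The levels of these 3 genes did not overlap between groups, which was a condition for naming them. Rac3 and Cbr2, a carbonyl reductase (−3.38 ± 0.46), are neighbours on chromosome 11 (chr11:120721470-120723969 and chr11:120729489-120732114). The phosphatases Dusp2 and Dusp1, which switch off MAP kinases, fell by 2.27 ± 0.45 and 1.02 ± 0.21. Cd14, the LPS co-receptor, was at 450.1, 398 and 381 CPM in WT T32 libraries, against 747 and 685 CPM in WT T16 libraries (−0.80 ± 0.18). Dusp1 and Cd14 were the 2 of 32 NF-kB and TLR regulators that fell, against 1.57% of all genes tested, and none rose (median −0.27). Neither was called without WT T16 replicate 2 (−0.82 and −0.87), and Dusp2 had −1.15 and no call (edgeR adjusted p = 0.489). Id3, an inhibitor of helix-loop-helix factors, fell by 2.47 ± 0.35, and Hspa1a, a stress-induced chaperone with the near-identical copy Hspa1b, by 2.08 ± 0.29. Trem3, a myeloid activating receptor, fell by 2.07 ± 0.35, with −1.43 and no call without WT T16 replicate 2. Tarm1, Tnfrsf9, Rac3, Cbr2, Id3 and Hspa1a were still called without it.

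Some genes on the neutrophil and the acute-phase lists fell, and lists can share members. The falling genes named in this paragraph are all on the neutrophil list. Of 18 neutrophil and granulocyte precursor genes 8 fell and none rose (median −1.06), and of 25 acute-phase and antimicrobial genes 6 fell and none rose (median −0.95). The shares over all genes tested were 1.57% and 1.35%. S100a9, a calcium-binding alarmin, was at 17.1, 22.3 and 24.6 CPM in WT T32 libraries, against 45.2 and 135 CPM in WT T16 libraries (−2.08 ± 0.35). S100a8, its partner, was at 8.43, 12.3 and 11.2 CPM in WT T32 libraries, against 24.5 and 58.7 CPM in WT T16 libraries (−1.96 ± 0.31). For both, T16 replicate 2 was the higher of the pair. The antimicrobial peptide gene Camp fell by 2.38 ± 0.45, the granule gene Ngp by 1.85 ± 0.30, lactoferrin (Ltf) by 1.67 ± 0.29 and the siderophore-binding Lcn2 by 1.80 ± 0.35. The summed level of the neutrophil list was 477 to 641 CPM in WT T32 libraries, against 805 and 1662 CPM in WT T16 libraries. That list's medians against WT T0 were −0.38 at T6, −1.31 at T16 and −2.62 at T32. The acute-phase list's medians were 2.45, 2.19 and 1.72. S100a9 averaged 164 CPM at T0, 157 at T6, 90.3 at T16 and 21.4 at T32 in WT, and Camp 14.5, 17.6, 5.61 and 1.06. Neither gene was called higher at T6 than at T0. Fewer cells of a type and less RNA per cell cannot be told apart in bulk samples, and the part of neutrophil-lineage cells was not tested. Without WT T16 replicate 2 no member of either list had a call (medians −0.79 and −0.37).

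Other lists held some genes that fell, against 1.57% of all genes tested. MHC class I genes fell in 4 of 21 (Psme2, Psme1, Psmb8 and Tapbp of peptide processing and loading; median −0.30) and MHC class II and costimulation genes in 4 of 20 (H2-Eb1, H2-Aa, Icosl and Pdcd1lg2; median −0.34). Without WT T16 replicate 2 none of these 8 had a call. Summed levels of both MHC lists overlapped between groups. The class I list summed to 21259 to 24812 CPM in WT T32 libraries, against 21403 and 30637 CPM in WT T16 libraries. The class II and costimulation list summed to 6792 to 7654 CPM, against 6539 and 7138 CPM. Matrix metalloproteinase, adhesion and migration genes fell in 5 of 35. The collagenase gene Mmp13 was at 22.0, 19.2 and 49.8 CPM in WT T32 libraries, against 77.9 and 112 CPM in WT T16 libraries. NRF2 targets fell in 4 of 28, led by Gstm1 and by the heme oxygenase gene Hmox1 (1785, 1638 and 1851 CPM in WT T32 libraries, 3637 and 4347 CPM in WT T16 libraries, −1.18 ± 0.23). Endoplasmic reticulum folding genes fell in 4 of 24, namely Creld2, Manf, Pdia6 and Dnajb11. Clock output genes fell in 3 of 17, namely Nr1d1, Dbp and Tef. Without WT T16 replicate 2, the calls left were 2 of the matrix and adhesion genes (Itgax and Vcam1), 2 of the NRF2 targets (Nqo1 and Slc7a11) and none of the folding genes. Nr1d1, Dbp and Tef then had no call, and the clock gene Per2 had one. Of 52 interferon response genes 1 fell, Isg20 (−1.22 ± 0.32), and none rose (median −0.14), a share near that of all genes. No interferon response gene fell without WT T16 replicate 2 (median −0.06). Reads of Slc7a2, Tnfrsf9, Hspa1a and Il4i1 could not be separated from those of the antisense genes that overlap them, which include Camta1 at Tnfrsf9 and Atf5 at Il4i1.

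**Figure D2:**
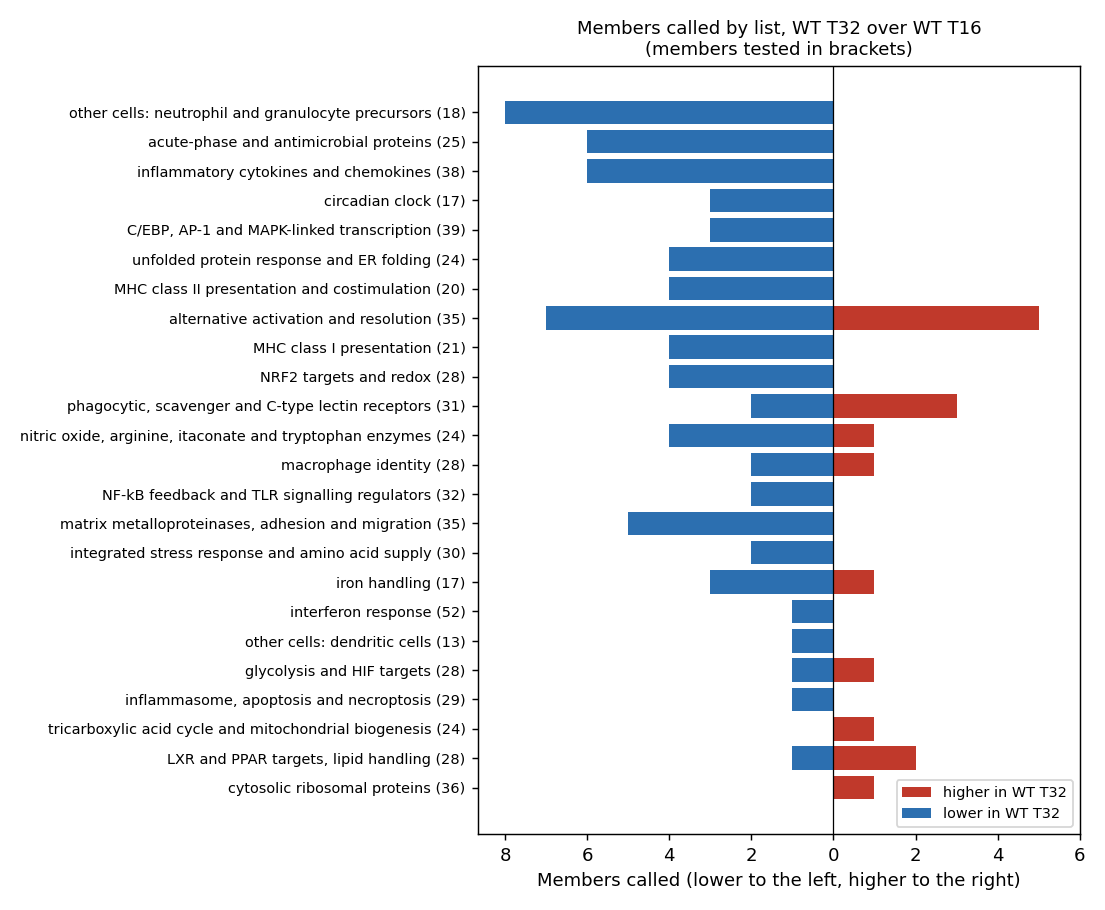
Members of each gene list called higher (right, red) or lower (left, blue) in WT T32 over WT T16, with the number tested in brackets; lists with no call are left out. The longest bar is the 8 neutrophil and granulocyte genes called lower. Over all genes tested, 1.35% were called higher and 1.57% lower.

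Most genes that LPS had raised strongly at T6 had no call between T32 and T16. Of 1505 genes (9.54%) raised by a log2 fold change of at least 2 at T6 over T0, 102 fell (6.78%) and 6 rose (0.399%) between T32 and T16, against 1.57% and 1.35% of all genes tested. Their median was −0.17, or −0.12 without WT T16 replicate 2, where 29 fell. Against T0 their medians were 3.03 at T6, 1.74 at T16 and 1.57 at T32, and 1046 of them were called above T0 at T16 and 1063 at T32. Over all genes tested, 18.8% were called above T0 at T16 and 24.5% at T32. These comparisons share the T0 libraries. Saa3, an acute-phase reactant, was at 15660, 23578 and 22706 CPM in WT T32 libraries, against 21829 and 47811 CPM in WT T16 libraries, with 13743 CPM on average at T6 and no call (−0.75 ± 0.46). The single member named for a rise was Sh3bgrl2, an SH3-binding glutamate-rich protein gene (58.7, 55.5 and 44.3 CPM in WT T32 libraries, 37.3 and 22.9 CPM in WT T16 libraries). Of 1231 genes (7.8%) lowered at T6, 32 rose (2.60%) and 9 fell (0.731%), with a median of 0.11. At T16, 699 of them were called below T0, and at T32 771. Over all genes tested, 17.2% were called below T0 at T16 and 21.9% at T32. Cebpa, the myeloid transcription factor gene, was among those that fell (44.6, 35.4 and 32.3 CPM in WT T32 libraries, 60.5 and 61.9 CPM in WT T16 libraries), as were Angptl4, Dbp, Tef and Plxna3. Angptl4 was still called without WT T16 replicate 2, and Sh3bgrl2 (0.50), Cebpa (−0.69), Dbp, Tef and Plxna3 were not.

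**Figure D3:**
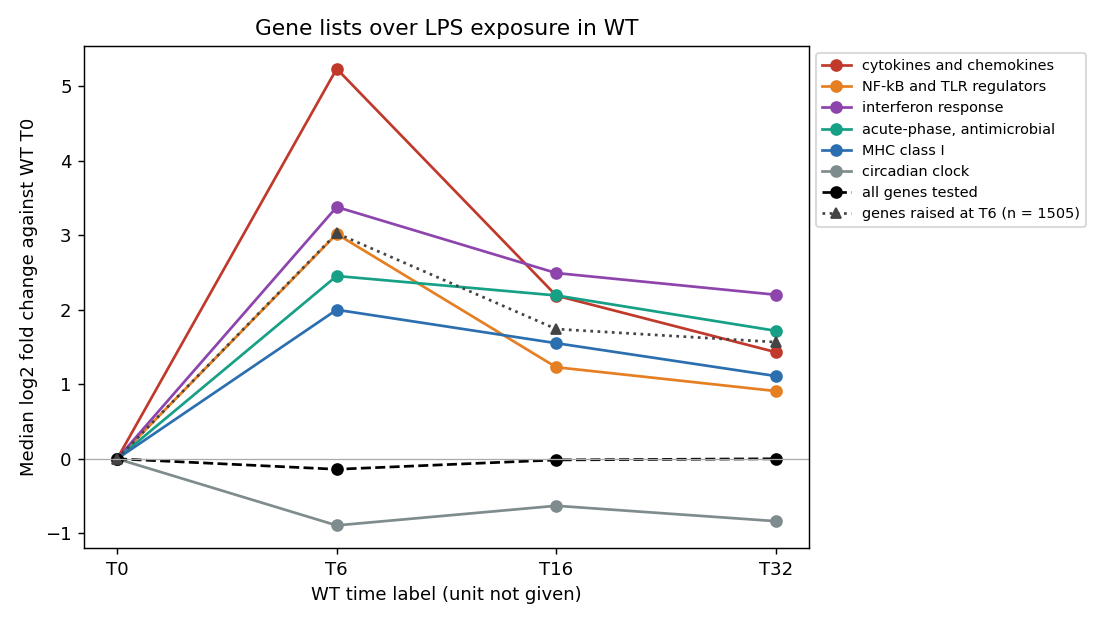
Median log2 fold change against WT T0 at each time label for 6 gene lists, for all genes tested (dashed) and for the 1505 genes raised at T6 (dotted). The cytokine list comes down most between T6 and T16, and the interferon list stays above a median of 2 at T32.

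Single genes of scavenging, lipid handling and iron uptake rose, while the lists that hold them did not move one way. Over all genes tested, 1.35% rose and 1.57% fell. Of 31 phagocytic, scavenger and lectin receptor genes 3 rose and 2 fell (median −0.29), of 28 LXR and PPAR targets 2 rose and 1 fell (median 0.09), and of 17 iron handling genes 1 rose and 3 fell (median −0.15); without WT T16 replicate 2 the iron list had no call. Of the 121 protein-coding genes that rose, 77 (63.6%) were called lower at T6 than at T0, against 34.4% of protein-coding genes tested. Mrc1, the mannose receptor CD206 (chr2:14229392-14332057), was at 114, 190.1 and 124 CPM in WT T32 libraries, against 44.2 and 25.6 CPM in WT T16 libraries (2.03 ± 0.30, edgeR adjusted p = 0.000794), and had averaged 221 CPM at T0. Clec10a, a galactose-binding lectin, was at 4.97, 6.69 and 4.60 CPM in WT T32 libraries, against 1.36 and 1.65 CPM in WT T16 libraries (1.85 ± 0.44), with 52.1 CPM at T0. Slc9a9, an endosomal sodium-proton exchanger (chr9:94669909-95230445), was at 48.4, 64.0 and 51.3 CPM in WT T32 libraries, against 11.1 and 11 CPM in WT T16 libraries (2.30 ± 0.24, edgeR adjusted p = 2.79e-05). For these 3 genes every T32 value exceeded both T16 values, as the rule for naming them required, and stayed under the T0 mean. Mrc1 was not called lower at T6 than at T0 (196 CPM on average at T6), while Slc9a9 (55.0 CPM) and Clec10a (9.78 CPM) were. Reads of Slc9a9 could not be separated from those of the antisense genes that overlap it.

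Tfrc, the transferrin receptor for iron uptake, was at 111, 178 and 66.0 CPM in WT T32 libraries, against 50.1 and 21.2 CPM in WT T16 libraries (1.73 ± 0.34). Gas6, the bridging ligand for uptake of dying cells, was at 150.3, 197 and 153 CPM in WT T32 libraries, against 70.8 and 92.9 CPM in WT T16 libraries (1.03 ± 0.16). Pparg, the lipid-sensing nuclear receptor, was at 10.6, 9.10 and 10.8 CPM in WT T32 libraries, against 4.57 and 6.64 CPM in WT T16 libraries (0.86 ± 0.19), and the fatty acid carrier Fabp5 rose by 1.16 ± 0.28. Each of these rises was without overlap, as were all 213 genes that rose. The guidance ligand gene Slit1 (1.96 ± 0.28), the costimulatory receptor gene Cd28 (1.79 ± 0.43), Npl, a sialic acid lyase gene (2.35 ± 0.44), Plscr4, a phospholipid scramblase gene (1.46 ± 0.33), and Tbc1d4, a Rab GTPase-activating protein gene (1.35 ± 0.23), also rose. The alternative activation and resolution list did not move one way. Of 35 genes tested, 5 rose (Mrc1, Clec10a, Gas6, Pparg and Igf1) and 7 fell (Ccl24, Il1rn, Arg1, Ccl22, Chil3, Pdcd1lg2 and Spp1), with a median of −0.33. The shares over all genes tested were 1.35% and 1.57%. Without WT T16 replicate 2, 3 of this list rose (Mrc1, Gas6 and Pparg) and 2 fell (Il1rn and Ccl22). Clec10a (1.99), Tfrc (1.24), Npl (2.11), Cd28 (1.29), Plscr4 (1.07), Tbc1d4 (1.02), Fabp5 (1.45) and Igf1 (0.55) then had no call, and Slc9a9 and Slit1 were still called.

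A large share of the genes that rose were pseudogenes. Annotated pseudogenes made up 86 of the 213 (40.4%), against 9.05% of all genes tested, and 2 of the 247 that fell. Pseudogenes took 1.02 to 1.07% of counts in the 3 WT T32 libraries, against 0.822 and 0.850% in the WT T16 libraries and 0.670 to 0.856% in all 20 other libraries. The 86 summed to 470 to 490 CPM in WT T32 libraries, against 188 and 175 CPM in WT T16 libraries and 172 to 275 CPM in all 20 others. Their median change was 1.58 in WT and 0.12 in KO cells, against 1.04 and 0.55 for the 121 protein-coding genes that rose. The part that the assignment of reads to near-identical copies plays in these calls was not tested, and a difference in how the 3 WT T32 libraries were aligned or counted cannot be told apart from the group. The same holds for Rnaset2a, a near copy of Rnaset2b, and for Ftl1-ps1 (1.89 ± 0.41), by its symbol a pseudogene copy of Ftl1 but annotated as protein-coding, with an antisense gene that overlaps it. It holds too for Rpl6 and Pgam1, whose transcripts have processed copies, and for mt-Atp6, which overlaps mt-Atp8 and mt-Co3. The level of mt-Atp6 was 5.11, 8.79 and 3.92 CPM in WT T32 libraries, against 0.572 and 1.01 CPM in WT T16 libraries. Unlike the pseudogene share, it overlapped the 20 other libraries, which ran from 0.420 to 4.44 CPM. Its WT means were 2.67 CPM at T0 and 2.86 CPM at T6. With protein-coding genes alone, adjusted over them, 112 rose and 212 fell.

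**Figure D4:**
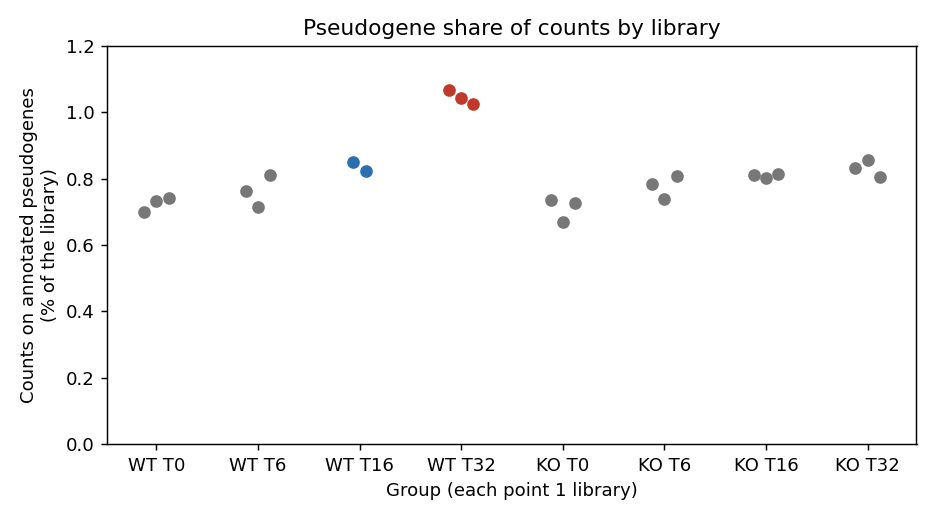
Percent of each library's counts on annotated pseudogenes, by group; each point is 1 of 23 libraries. The 3 WT T32 libraries lie between 1.02 and 1.07%, above the other 20.

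The same interval was measured in KO cells in 6 other libraries. Between KO T32 and KO T16, 118 genes rose (0.748%) and 285 fell (1.81%), and 175 of these 403 (2.55%) were also called in WT. Of the 247 genes that fell in WT, 246 had the same sign in KO cells and 124 were called there in that direction. Of the 213 that rose, 178 had the same sign and 51 were called. Over all genes tested, 63.9% had the same sign. Among protein-coding genes that rose in WT, 113 of 121 had the same sign in KO cells and 46 were called, and among the pseudogenes 60 of 86 and 3. Slc7a2 fell by 2.71 ± 0.25 in KO cells, Rac3 by 2.89 ± 0.30, and Slc9a9 rose by 2.17 ± 0.21, close to their WT values. Mrc1 had 0.48 ± 0.25 in KO cells with no call, and the difference from WT was 1.55 ± 0.38 (edgeR adjusted p = 0.592). The one gene whose change differed between genotypes by the test of the difference was Rnaset2a (0.00634% of genes tested), an RNase T2 gene at chr17:8115445-8148097, with 17.9, 18.2 and 18.2 CPM in WT T32 libraries and 2.75 and 5.29 CPM in WT T16 libraries, and with 3.68 ± 0.56 CPM in KO T32 and 4.18 ± 0.30 CPM in KO T16 libraries (SD, n = 3 each). Its change was 2.18 ± 0.26 in WT and −0.18 ± 0.22 in KO cells, a difference of 2.36 ± 0.33 (edgeR adjusted p = 0.012).

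**Figure D5:**
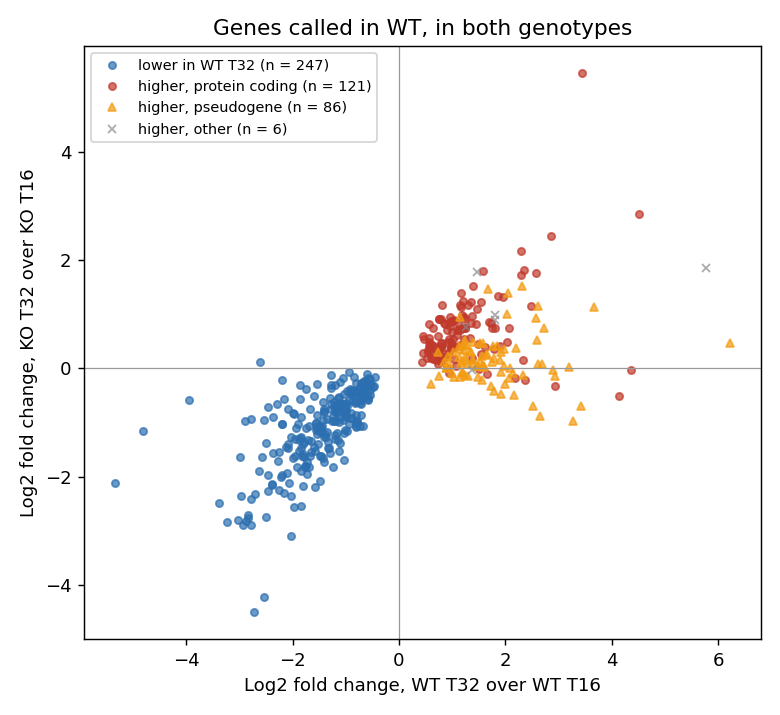
Log2 fold change of the 460 genes called in WT, T32 over T16 in WT (horizontal) and in KO cells (vertical); colours separate genes lower in WT T32 from protein-coding genes, pseudogenes and other genes that were higher. Of the lower genes 246 of 247 are below 0 on the KO axis, and the pseudogenes have a median of 0.12 there.

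Lists of general cell functions were near the background. None of the genes tested for DNA replication (36; median −0.16), mitosis (36; 0.09), oxidative phosphorylation (33; −0.18, or −0.46 without WT T16 replicate 1 and 0.14 without WT T16 replicate 2), cholesterol and fatty acid synthesis (32; 0.01), lysosome and autophagy (39; −0.02, or 0.06 without WT T16 replicate 2), p53 targets (23; 0.02, or −0.04 without WT T16 replicate 1) or ribosome biogenesis (35; −0.08, or 0.03 with library totals and 0.10 without WT T16 replicate 1) had a call. Ctsb, a lysosomal protease gene, was at 16267, 13971 and 16268 CPM in WT T32 libraries, against 12394 and 15530 CPM in WT T16 libraries (0.15 ± 0.17). Of other marker lists, Itgax, the integrin CD11c, was the 1 of 13 dendritic cell genes that fell, and stromal, mast, erythroid and T, B and NK cell genes had no call. All 15 stromal and endothelial genes tested were lower at T32 (median −0.63), with a summed level of 103 to 603 CPM in WT T32 libraries, against 569.6 and 639.7 CPM in WT T16 libraries. Without WT T32 replicate 2, the library low in Col1a1, 10 of 15 were lower and the median was −0.18. The part of such cells in the falls was not tested. Of the T, B and NK cell genes, 13 of 16 were under 1 CPM in all 5 libraries.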

How the data were processed

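Polyadenylated RNA of the BMDM libraries was sequenced as single-end reads, per the labels' protocols, with a TruSeq kit that does not mark strand, so reads of genes that overlap, on either strand, cannot be separated. The submitters' processing notes name GSNAP and GRCm38; the sources used here give no settings. Counts per Ensembl gene (52636 genes) were deposited by the authors, and per the file headers they are reads aligning uniquely to the gene model. The gene model size was used for no test. Total counts ran from 19455080 to 44097733 per library. Libraries of a group differed by more than counting noise in every pair (chi-square over degrees of freedom 13.9 to 188), so none was merged.

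Counts were analysed with edgeR 4.0.16 in R 4.3.3: genes were kept by filterByExpr (15782), libraries were scaled by TMM (0.677 to 1.45), and a robust quasi-likelihood model with 1 mean for each group was fitted over the 23 libraries (common biological coefficient of variation 0.217). Adjusted p-values are Benjamini-Hochberg over all genes tested and the threshold is 0.05. Levels are TMM-scaled CPM, and errors of log2 fold changes are standard errors from the F statistic. Gene coordinates come from GENCODE M21, and windows from RefSeq on GRCm38.p6. The fit was tested on simulated counts with a coefficient of variation of 0.217 for every library and no library set apart. That test cannot show how the calls behave with a library like WT T16 replicate 2.

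The members and the gene lists were chosen with earlier results of these data known. Named genes were the 12 genes called higher and 12 called lower with the largest change, a symbol that is not a clone or predicted name, at least 5 CPM in a group, no overlap between groups and the same direction without each of the 5 libraries; up to 4 called members per list (2 by level where none was called); 5 in each direction among the genes that responded at T6; and up to 6 for the test between genotypes. A gene that this rule selects is left out of the text and the figures. Some genes were named after their values were seen. Alternatives were DESeq2 1.42.0, other scalings, no filter, fewer libraries, Y-linked transcripts as a covariate and leaving out each of the 5 libraries.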

Additional observations from a re-analysis of the deposited data

Results flagged for a closer look

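Rnaset2a had a change between T32 and T16 that differed between genotypes by a test of the difference itself. The log2 difference, WT minus KO, was 2.36 (edgeR adjusted p = 0.012), and the change was 2.18 in WT and −0.18 in KO cells. All 3 WT T32 libraries were at 17.9 to 18.2 CPM, while the other 20 libraries were at 1.02 to 5.29 CPM. Rnaset2b, its near copy, was at 2.07 to 2.19 CPM in WT T32 libraries and at 1.52 and 2.44 CPM in WT T16 libraries. The part of read assignment between these copies was not tested.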

How the results depend on the processing

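No paired analysis was possible because the labels give no replicate numbers that tie libraries to each other. Counts called higher and lower were 213 and 247. They were 199 and 259 with RLE size factors, 213 and 235 with Y-linked transcripts as a covariate, 252 and 160 with library totals (which moved the median of all genes to 0.14), 129 and 178 without a filter, 391 and 485 with DESeq2, 57 and 80 with the 11 WT libraries, and 0 and 0 with the 5 libraries alone. Leaving out 1 library gave 43 to 1921 higher and 48 to 1091 lower, the extremes being WT T16 replicate 2 and replicate 1. Protein-coding genes alone, an alternative chosen after seeing the data, gave 112 and 212.

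Of genes raised at T6, 102 fell and 6 rose. DESeq2 gave 168 and 13, the 11 WT libraries 38 and 1, protein-coding genes 87 and 1, and a T6 log2 fold change of at least 1 gave 137 and 25. Leaving out 1 library gave 29 to 228 and 0 to 94. Of genes lowered at T6, 32 rose and 9 fell. Library totals gave 64 and 4, DESeq2 48 and 17, the 11 WT libraries 11 and 2, and the lower T6 threshold 68 and 17. Leaving out 1 library gave 7 to 127 and 1 to 35. The 5 libraries alone could give no T6 value.

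Distinct list members called were 67, against 110 with DESeq2, 20 with the 11 WT libraries and 0 with the 5 libraries, and 16 to 186 leaving out 1 library. The test of the difference between genotypes called 1 gene, 14 with DESeq2 and 1 to 652 leaving out 1 library. The causes were not tested. Of 75 named or listed genes that passed, none changed direction under these alternatives, and most did not pass without WT T16 replicate 2. The genes named for the largest changes had been required to keep their direction without each library. For them, leaving out 1 library could show no reversal. Where WT T16 is left with 1 library, that library is assumed to vary like the other groups.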

Other observations

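Ifnb1, the interferon beta gene, was at 3.74, 3.67 and 8.46 CPM in WT T32 libraries, against 1.09 and 2.93 CPM in WT T16 libraries. The log2 fold change was 1.41 ± 0.45 without a call in WT (edgeR adjusted p = 0.0987) and 2.07 ± 0.38 with one in KO cells (edgeR adjusted p = 0.00394). It was named after its values were seen. Its mean was 2.36 CPM at T6 and 0.231 CPM at T0 in WT.

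Of the 247 genes that fell, WT T16 replicate 2 was farther from the T32 libraries than replicate 1 in 212, and of the 213 that rose in 140.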
